A study of Mus musculus with 6 samples.

Results

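MHC class I molecules and the machinery that supplies them with peptides were followed through 10 genes in the left ventricle (LV) of mice with a heterozygous Lztr1 mutation. The genes were picked by name as a pathway, with earlier results of these data known, and they are 10 of 56923 genes listed. All 10 passed edgeR's filter on low counts, as did 17212 of all genes listed. They are the heavy chains H2-K1 and H2-D1, the light chain B2m, the transport and loading genes Tap1, Tap2 and Tapbp, the immunoproteasome subunits Psmb8, Psmb9 and Psmb10, and the transactivator Nlrc5. mRNA-Seq was performed on LVs from 3 WT mice and 3 Lztr1 R409C/+ mice, with 1 library per mouse, to examine gene expression in a mouse model of Noonan syndrome with cardiac hypertrophy. Both groups were 12 weeks old, no treatment is named for either, and the hearts had been perfused with cold PBS. The Lztr1 R409C/+ mice carry 1 knock-in allele with a single amino acid substitution, R409C, in every cell of the body, and the line was made by CRISPR/Cas9 and backcrossed to C57BL/6J. The labels name the tissue as heart and the genotypes as wild-type and mutant, while the LV is given in the study's methods and the allele in its account of the mRNA-Seq results. The study used male mice for its phenotypes, and no sex is given for these libraries.

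A class I molecule is a heavy chain paired with B2m, and it carries a short peptide from the cell's own proteins to the surface for inspection by CD8+ T cells and natural killer cells. The peptides are cut by the proteasome, pumped into the endoplasmic reticulum by the TAP1 and TAP2 transporter, and loaded with the help of tapasin, the product of Tapbp. Interferon gamma replaces the standard catalytic subunits of the proteasome with the immunoproteasome subunits, which are also present at rest in leukocytes. Cardiomyocytes carry little class I at rest, whereas endothelial cells and leukocytes of the heart carry more.

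Total counts ranged from 66130887 to 72641124 per mouse, so that 3 counts corresponded to between 0.0317 and 0.0541 CPM (counts scaled to a common library size with TMM factors), a floor that covers counting error only. The lowest count of any of the 10 genes in any mouse was 248, for Psmb9 in WT replicate 2. The share of counts from the mitochondrial genome was 13.8% for WT replicate 3 (95% Wilson interval 13.84 to 13.85%), 45.4% for Lztr1 R409C/+ replicate 1 (45.42 to 45.44%) and between 29.7% and 37.3% for the remaining 4 mice. Cardiomyocyte identity was plain, with Myh6, the main myosin heavy chain of the adult mouse ventricle, between 6330 and 17348 CPM in all 6 mice. Lztr1 itself was at 24.2, 24.2 and 22.2 CPM in WT and at 23.9, 27.9 and 25.3 CPM in Lztr1 R409C/+ mice, and counts per gene cannot show the substituted base.

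Promoter sequences are shown for the 4 genes with the lowest p-values below and for Tap1, whose promoter is also that of Psmb9. RefSeq's promoter table, on GRCm38.p6, held 8 of the 10 genes (Tap2 and Nlrc5 were not matched), and each was placed on GRCm39 by exact match. The 250 bases before the annotated start are printed 5′ to 3′ on the strand of the gene, from chr17:34219322-34219571 on the minus strand for H2-K1, chr17:35481820-35482069 on the plus strand for H2-D1, chr2:121977918-121978167 on the plus strand for B2m, chr17:34416919-34417168 on the plus strand for Psmb8 and chr17:34406280-34406529 on the plus strand for Tap1. Capitals mark matches to the interferon regulatory factor core AANNGAAA or the kappaB consensus in the first 3 sequences and to the gamma-activated site TTCNNNGAA in Psmb8, each searched on both strands, and Tap1 held none of these. In the GENCODE annotation used for gene positions, H2-D1, B2m, Psmb8 and Tap1 have starts farther upstream, so these windows lie partly or wholly inside the gene bounds given below.
H2-K1: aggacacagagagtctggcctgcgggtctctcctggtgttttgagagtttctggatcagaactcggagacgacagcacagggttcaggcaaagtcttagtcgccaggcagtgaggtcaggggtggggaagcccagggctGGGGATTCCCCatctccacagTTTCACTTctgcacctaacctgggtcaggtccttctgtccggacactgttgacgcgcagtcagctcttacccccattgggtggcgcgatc
H2-D1: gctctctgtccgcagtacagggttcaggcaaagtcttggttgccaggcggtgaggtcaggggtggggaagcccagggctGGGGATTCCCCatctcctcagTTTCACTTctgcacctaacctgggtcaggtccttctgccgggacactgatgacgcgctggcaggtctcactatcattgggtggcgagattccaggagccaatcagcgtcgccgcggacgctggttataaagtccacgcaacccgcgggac
B2m: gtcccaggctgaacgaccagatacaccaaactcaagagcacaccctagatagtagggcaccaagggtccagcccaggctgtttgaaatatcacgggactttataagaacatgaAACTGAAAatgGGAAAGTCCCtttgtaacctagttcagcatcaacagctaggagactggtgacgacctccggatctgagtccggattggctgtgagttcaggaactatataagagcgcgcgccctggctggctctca
Psmb8: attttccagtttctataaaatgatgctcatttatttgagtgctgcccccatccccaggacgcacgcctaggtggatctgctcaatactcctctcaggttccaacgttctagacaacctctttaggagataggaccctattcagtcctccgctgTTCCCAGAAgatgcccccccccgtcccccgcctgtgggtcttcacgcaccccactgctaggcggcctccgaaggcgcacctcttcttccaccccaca
Tap1: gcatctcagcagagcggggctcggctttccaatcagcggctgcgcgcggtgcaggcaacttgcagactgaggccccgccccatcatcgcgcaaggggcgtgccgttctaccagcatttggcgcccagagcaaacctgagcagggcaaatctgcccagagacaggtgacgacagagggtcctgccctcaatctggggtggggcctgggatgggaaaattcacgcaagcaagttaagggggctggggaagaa

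H2-K1, H2-D1 and B2m each held both an interferon regulatory factor core and a kappaB consensus, the binding sequence of NF-kappaB. In H2-K1 the core lay 90 to 83 bases before the start, next to a pair of overlapping kappaB matches between 111 and 101. H2-D1 had the same arrangement at 150 to 143 and 171 to 161, and its promoter shared with that of H2-K1 an identical stretch of 47 bases that includes the kappaB match. In B2m the order was reversed, with the core at 137 to 130 and the kappaB match at 126 to 117 bases before the start. Of 27025 promoters of the same length, 21.6% held the core and 3.75% held the kappaB consensus, against 3 of 8 here for each. CCAAT, the sequence bound by NF-Y, was found in 6 of 8 (H2-K1, H2-D1, B2m, Tap1, Tapbp and Psmb9) and in 34.5% of all promoters. TGACG, the core of the cyclic AMP response element, was found in 5 of 8 (the same genes without Tapbp) and in 17.9% of all promoters. Psmb8 alone held the gamma-activated site, 97 to 89 bases before its start, against 7.18% of all promoters. Tap1 and Psmb9 start back to back with 225 bases between them, so the printed Tap1 sequence and the window of Psmb9 share those 225 bases, and they hold the same CCAAT and TGACG matches. These matches describe letters in a window, and binding was not measured.

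Class I transcripts spanned a wide range of levels in the LV (plot of levels per length). Per kilobase of the representative transcript, B2m was the most abundant in WT mice, at 157 ± 20.5 CPM per kb (SD, n = 3), followed by H2-K1 at 61.9 ± 3.02 and H2-D1 at 51.4 ± 7.28 CPM per kb. Tapbp (19.8 ± 3.02) and Psmb10 (14.3 ± 2.32 CPM per kb) came next. Tap2 (4.95 ± 1.16), Psmb8 (4.17 ± 1.56), Psmb9 (3.19 ± 0.621) and Tap1 (3.16 ± 0.553 CPM per kb) formed a low group, and Nlrc5 was the lowest at 0.711 ± 0.0727 CPM per kb. WT values overlapped between the neighbours H2-K1 and H2-D1, Tap2 and Psmb8, Psmb8 and Psmb9, and Psmb9 and Tap1. They did not overlap between any other neighbours in this order. Among 17127 tested genes with a length, B2m ranked 231st, H2-K1 565th, H2-D1 673rd and Nlrc5 12131st. With the union of all annotated exons as the length, an alternative added after the data were seen, 6 of the 10 genes kept their place, H2-D1 passed H2-K1 and Tap1 passed Psmb9.

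**Figure D1:**
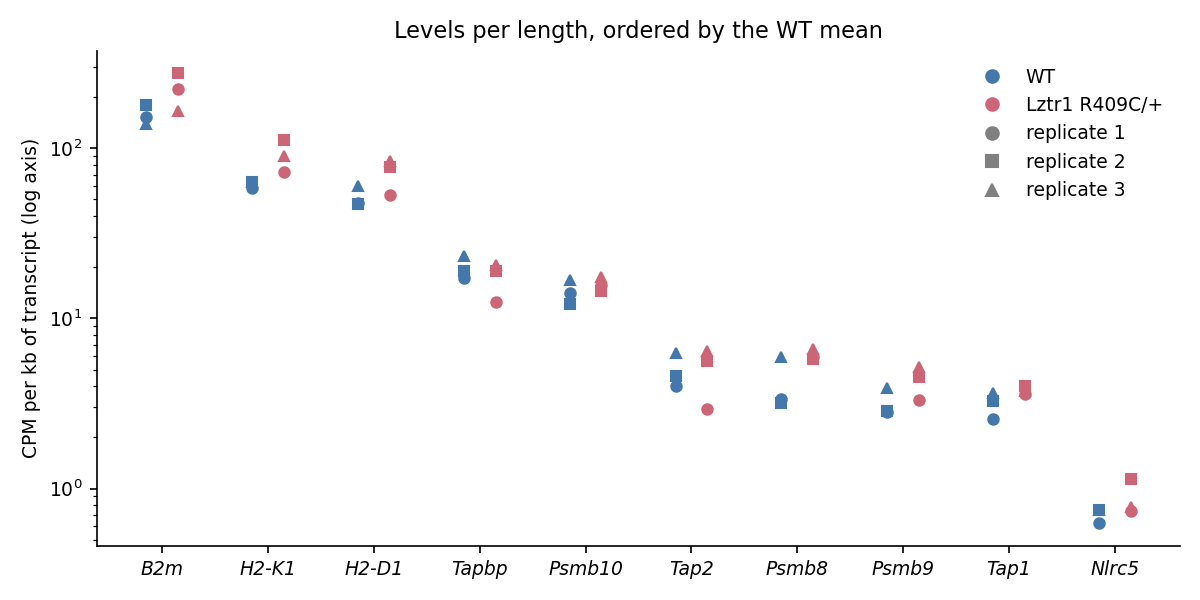
Level per length of each gene in each mouse (CPM per kb of the representative transcript, log axis), in the order of the WT mean, with blue for WT, red for Lztr1 R409C/+ and 1 symbol per replicate number. B2m was highest at 157 CPM per kb and Nlrc5 lowest at 0.711 CPM per kb in WT mice.

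The genotypes were then compared gene by gene with edgeR's quasi-likelihood test, adjusted over all 17212 genes tested. The heavy chains, B2m and Psmb8 had the largest fold changes, between 1.39 and 1.48 times the WT level, and Tap2, Tapbp and Psmb10 had the smallest. None of the 10 genes passed an adjusted p of 0.05 with edgeR or with DESeq2, beside 0.0407% of all tested genes with edgeR and 0.918% with DESeq2. At an unadjusted p under 0.05, 4 of the 10 were higher in Lztr1 R409C/+ mice and 0 lower, beside 5.77% of all tested genes that were higher and 2.86% that were lower at this threshold. With scaling by library size only, which shifted the median log2 fold change of all genes to -0.14, 0 of the 10 were below this threshold (2.25% of all tested genes were higher), 7 were above 0 (34.5%), 0 were without overlap (3.62%) and their median was 0.21. Log2 fold changes were above 0 for 9 of the 10 genes, beside 51.4% of all tested genes. The median log2 fold change was 0.38 over the 10 genes and 0.01 over all tested genes. In 1 of the 10, H2-K1, every Lztr1 R409C/+ mouse was above every WT mouse, beside 8.30% of all tested genes. These are bulk samples, in which fewer cells of a type and less RNA per cell cannot be told apart.

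The counts rest in part on single mice. Without Lztr1 R409C/+ replicate 2, 0 genes had an unadjusted p under 0.05, beside 5.19% of all genes tested there that were higher at this threshold. The number was 1 without WT replicate 1 (5.09%), 2 without WT replicate 2 (4.80%) and 2 without Lztr1 R409C/+ replicate 3 (4.89%). The number of genes without overlap was 6 when WT replicate 3 was left out, beside 13.7% of all genes tested there, and 5 when Lztr1 R409C/+ replicate 1 was left out, beside 13.4%. It was 2 without WT replicate 2 (12.1%) or Lztr1 R409C/+ replicate 3 (13.4%). When the mice with the lowest and the highest mitochondrial share were both left out, an alternative added after the data were seen, 10 genes had a log2 fold change above 0 (50.9% of all genes tested there), 9 did not overlap (21.2%), 5 had an unadjusted p under 0.05 (5.92%) and 0 passed the adjusted threshold.

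**Figure D2:**
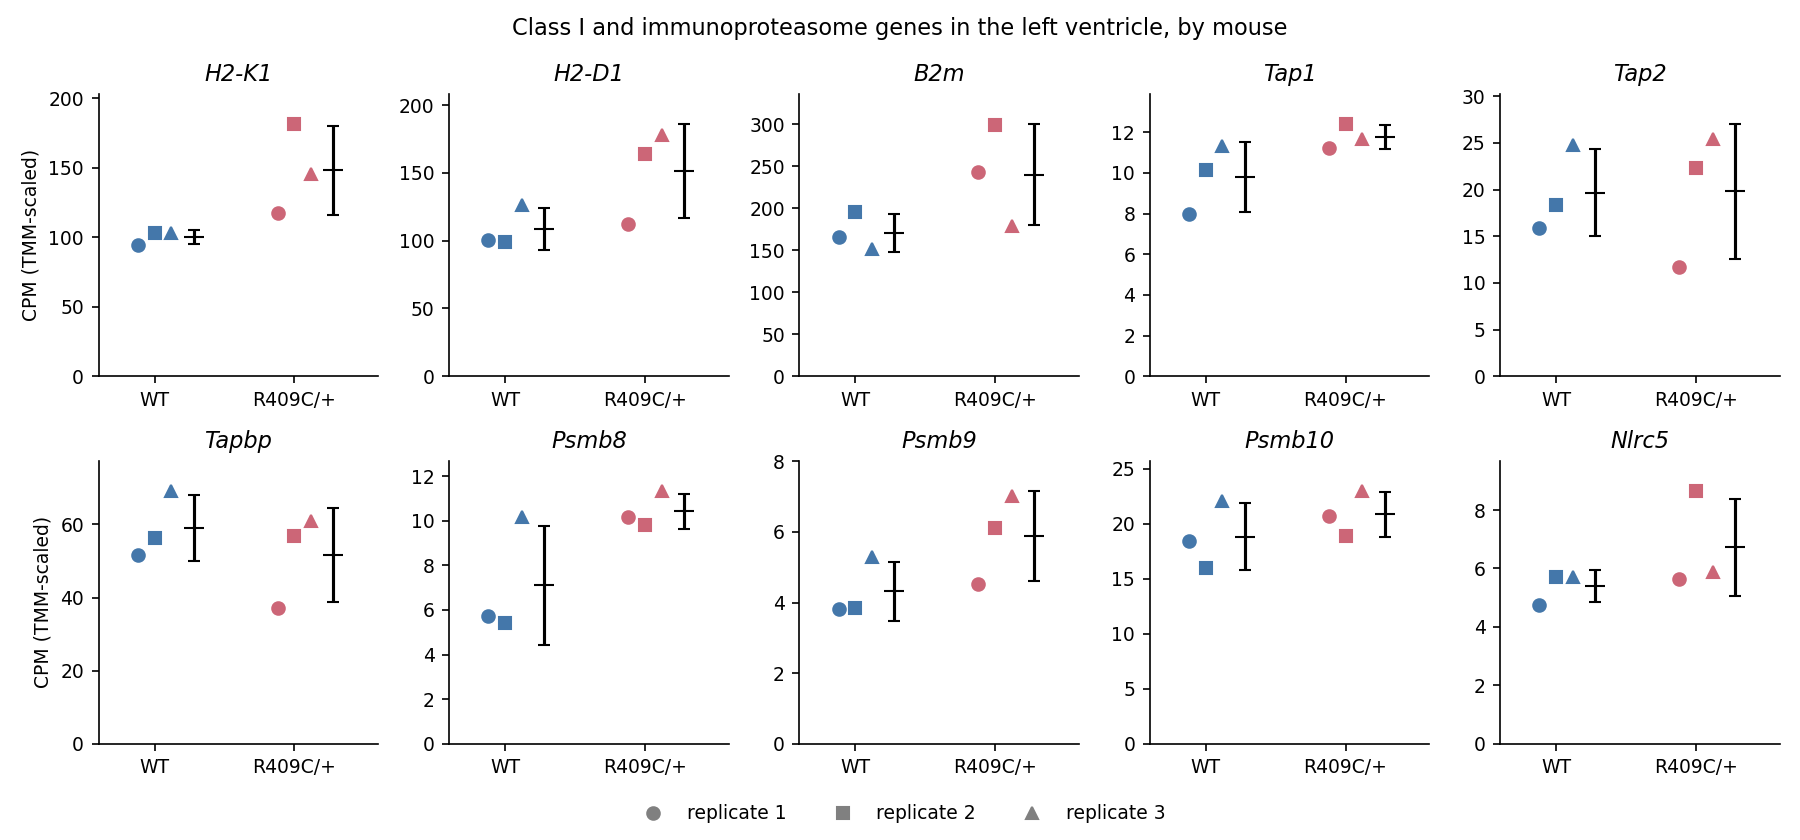
CPM of each of the 10 genes in each mouse (linear axes from 0), with blue for WT, red for Lztr1 R409C/+, 1 symbol per replicate number, and black bars for the mean ± SD of 3 mice. H2-K1 lay between 94.6 and 103 CPM in WT mice and between 118 and 182 CPM in Lztr1 R409C/+ mice, and the other 9 genes overlapped.

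H2-K1, the heavy chain of H-2K (chr17:34214987-34219321, minus strand, GRCm39), gave 94.6, 103 and 103 CPM in the WT mice, in the order of their replicate numbers, against 118, 182 and 145 CPM in the Lztr1 R409C/+ mice. The WT mice lay close together, at 100.2 ± 4.90 CPM (SD, n = 3), while the Lztr1 R409C/+ mice were spread more widely, at 148 ± 32.1 CPM (SD, n = 3), without overlap. Its log2 fold change was 0.56 (SE 0.18, unadjusted p = 0.00809, adjusted p = 0.401 by edgeR).
H2-D1, the heavy chain of H-2D (chr17:35481691-35486475, plus strand), stood at 101, 99.0 and 126 CPM in WT and at 112, 164 and 178 CPM in Lztr1 R409C/+ mice, in replicate order. Replicate 1 of the Lztr1 R409C/+ mice fell within the WT range, and the other 2 were above it. The log2 fold change of H2-D1 was 0.48 (SE 0.20, unadjusted p = 0.0307, adjusted p = 0.533 by edgeR). Within a mouse, H2-K1 counts were between 0.814 and 1.11 times the H2-D1 counts, and this ratio overlapped between the genotypes. Heavy chain genes resemble each other closely, and 26.6% of the 100-base windows of the H2-D1 transcript also occur in transcripts of 10 other genes, among them H2-Q6, H2-Q7 and H2-T22. The 10 include the antisense gene 5430410E06Rik, which overlaps H2-D1 by 927 bases, so this share also covers that overlap. For H2-K1 the share was 15.1%, all of it in the antisense gene Gm53999. How the study's counting assigned such reads is not given in the sources used here, so the division of reads among the heavy chain genes is uncertain.

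B2m, the shared light chain (chr2:121977957-121983594, plus strand), had 166, 195 and 151 CPM in WT and 243, 299 and 179 CPM in Lztr1 R409C/+ mice. Replicate 3 of the Lztr1 R409C/+ mice fell below WT replicate 2, and the other 2 lay above every WT mouse. Its log2 fold change was 0.49 (SE 0.20, unadjusted p = 0.0295, adjusted p = 0.532 by edgeR), and it was 0.30 without Lztr1 R409C/+ replicate 2. Relative to the summed heavy chains H2-K1 and H2-D1, each per length, B2m stood at 1.40 ± 0.251 in WT and 1.39 ± 0.421 in Lztr1 R409C/+ mice (SD, n = 3; exact permutation test, two-sided, p = 1). That ratio ran from 0.946 in Lztr1 R409C/+ replicate 3 to 1.78 in replicate 1, so heavy and light chains did not keep a fixed proportion across mice. B2m lies within Patl2, which is on the opposite strand, and shared no 100-base window with another transcript.

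None of the 3 transport and loading genes had an unadjusted p under 0.05, beside 5.77% of all tested genes that were higher and 2.86% that were lower. Tap1, one chain of the peptide transporter (chr17:34405996-34416199, plus strand), was at 7.96, 10.1 and 11.3 CPM in WT and at 11.2, 12.4 and 11.7 CPM in Lztr1 R409C/+ mice. WT replicate 1 was the lowest, and the Lztr1 R409C/+ mice overlapped WT replicate 3 (log2 fold change 0.26, SE 0.18, adjusted p = 0.737 by edgeR). Its log2 fold change was 0.13 without WT replicate 1.
Tap2, its partner (chr17:34422501-34435829, plus strand), was at 15.9, 18.3 and 24.8 CPM in WT and at 11.7, 22.4 and 25.4 CPM in Lztr1 R409C/+ mice. The lowest value belonged to Lztr1 R409C/+ replicate 1, the mouse with the highest mitochondrial share, and the highest WT value to replicate 3, the mouse with the lowest share. The log2 fold change of Tap2 was 0.01 (SE 0.26, adjusted p = 0.993 by edgeR), and its sign turned under 8 of 16 alternatives. Tap2 counts were 1.04 times the Tap1 counts in Lztr1 R409C/+ replicate 1 and between 1.80 and 2.19 times in the other 5 mice.
Tapbp, which bridges the transporter and empty class I molecules (chr17:34134873-34148267, plus strand), had 51.7, 56.2 and 69.1 CPM in WT and 37.1, 56.8 and 61.0 CPM in Lztr1 R409C/+ mice. The lowest value was again that of Lztr1 R409C/+ replicate 1, and the highest was that of WT replicate 3. Tapbp was the only one of the 10 with a log2 fold change below 0, at -0.19 (SE 0.20, adjusted p = 0.831 by edgeR). It was -0.011 without Lztr1 R409C/+ replicate 1, -0.064 without WT replicate 3 and -0.33 without Lztr1 R409C/+ replicate 3, and it turned to 0.13 without the mice with the lowest and highest mitochondrial share. The part of the mitochondrial share in these values was not tested. Tapbp overlaps Zbtb22 on the same strand by 3422 bases and shares 25.2% of its 100-base windows with 3 other genes, so its share of the reads there is uncertain.

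Of the 3 immunoproteasome subunits, 1 was higher and 0 lower at an unadjusted p under 0.05, beside 5.77% and 2.86% of all tested genes. Psmb8, the beta 5i subunit (chr17:34416690-34420428, plus strand), was at 5.74, 5.41 and 10.2 CPM in WT and at 10.2, 9.83 and 11.3 CPM in Lztr1 R409C/+ mice. WT replicate 3 fell within the Lztr1 R409C/+ range, and the other WT mice were well below it. Its log2 fold change was 0.55 (SE 0.24, unadjusted p = 0.0423, adjusted p = 0.564 by edgeR), and it was 0.90 without WT replicate 3, 0.39 without WT replicate 2 and 0.42 without WT replicate 1.
Psmb9, the beta 1i subunit (chr17:34400960-34406738, minus strand), had 3.81, 3.85 and 5.29 CPM in WT and 4.51, 6.11 and 7.02 CPM in Lztr1 R409C/+ mice, with 2 of them above every WT mouse (log2 fold change 0.45, SE 0.24, adjusted p = 0.643 by edgeR). Psmb9 overlaps Tap1 by 743 bases on the opposite strand and shares 33.2% of its 100-base windows with it, and since strand use in the counting is not given, reads there cannot be told apart.
Psmb10, the beta 2i subunit (chr8:106662362-106665077, minus strand), was at 18.4, 16.0 and 22.03 CPM in WT and at 20.7, 18.9 and 22.96 CPM in Lztr1 R409C/+ mice. The groups overlapped over most of their range (log2 fold change 0.15, SE 0.17, adjusted p = 0.852 by edgeR). The value was 0.039 without WT replicate 2, 0.073 without Lztr1 R409C/+ replicate 3 and 0.28 without WT replicate 3. Psmb10 was the most abundant of the 3 subunits in every mouse and was the only one encoded outside the MHC region of chromosome 17.

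Each immunoproteasome subunit takes the place of a standard one, and their ratio within a mouse does not depend on how libraries are scaled (plot of subunit ratios). Psmb8 counts were 15.4%, 13.5% and 14.3% of the counts of Psmb5, the beta 5 subunit, in WT mice and 23.02%, 19.2% and 21.4% in Lztr1 R409C/+ mice. All 3 Lztr1 R409C/+ mice were above all 3 WT mice, at 21.2% ± 1.93 against 14.4% ± 0.948 (SD, n = 3; difference 0.56 on the log2 scale). An exact permutation test, two-sided, gave p = 0.1, the smallest p that 3 mice against 3 allow, and 0.3 adjusted over the 3 ratios. WT replicate 3, which was high in Psmb8, was also high in Psmb5, at 71.3 CPM against 37.3 and 40.1 CPM in the other WT mice. Leaving out each mouse in turn gave differences between 0.50 and 0.63 on the log2 scale.
Psmb9 counts were 10.9%, 10.7% and 13.2% of those of Psmb6, the beta 1 subunit, in WT mice and 11.0%, 16.0% and 13.4% in Lztr1 R409C/+ mice. These ranges overlapped (difference 0.21 on the log2 scale; exact permutation test, two-sided, p = 0.2). The difference was 0.07 without Lztr1 R409C/+ replicate 2 and 0.35 without replicate 1. Psmb10 counts were 25.1%, 25.0% and 36.0% of those of Psmb7, the beta 2 subunit, in WT mice and 32.1%, 30.5% and 25.6% in Lztr1 R409C/+ mice. WT replicate 3 had the highest value of all (difference 0.05 on the log2 scale; exact permutation test, two-sided, p = 0.8), and the sign of the difference turned without WT replicate 1, WT replicate 2 or Lztr1 R409C/+ replicate 1.

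**Figure D3:**
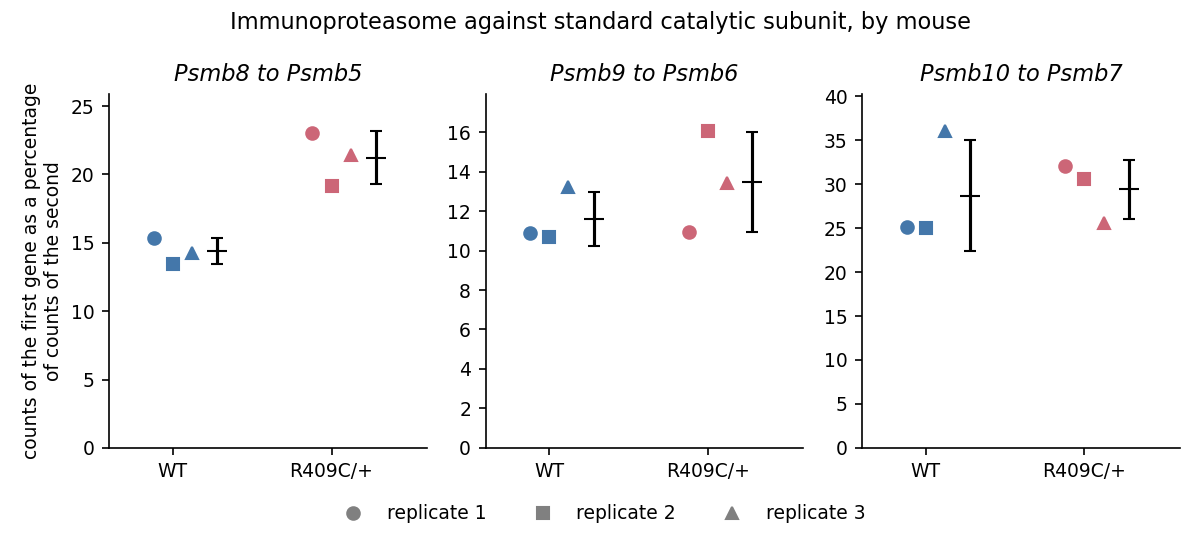
Counts of each immunoproteasome subunit as a percentage of the counts of the standard subunit it replaces, in each mouse (linear axes from 0), with blue for WT, red for Lztr1 R409C/+, and black bars for the mean ± SD of 3 mice. Psmb8 to Psmb5 was between 13.5% and 15.4% in WT and between 19.2% and 23.02% in Lztr1 R409C/+ mice, and the other ratios overlapped.

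Nlrc5, the transactivator that binds class I promoters together with the RFX and NF-Y factors (chr8:95160984-95253900, plus strand), was at 4.75, 5.70 and 5.71 CPM in WT and at 5.63, 8.64 and 5.89 CPM in Lztr1 R409C/+ mice. Replicate 2 of the Lztr1 R409C/+ mice stood above the rest, while replicate 1 lay within the WT range and replicate 3 just above it. The log2 fold change of Nlrc5 was 0.32 (SE 0.23, adjusted p = 0.739 by edgeR), and it was 0.09 without that mouse.

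Other genes of the class I pathway were listed by role, 75 in all, of which 66 were tested and H2-Q9 was not matched to the counts (plot of pathway genes by role). Of these 66 genes, 0 passed an adjusted p of 0.05 with edgeR, while 8 were higher and 5 lower at an unadjusted p under 0.05, beside 5.77% and 2.86% of all tested genes. DESeq2 called 1 of the 66, Irf8, beside 0.918% of all tested genes. The median log2 fold change over the 66 was 0.05, beside 0.01 over all tested genes. Nonclassical and class I-like heavy chains had a median of 0.34, with 13 of 16 tested above 0, and loading and quality control genes had a median of -0.26, with 7 of 10 below 0. Of all tested genes, 51.4% were above 0.

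**Figure D4:**
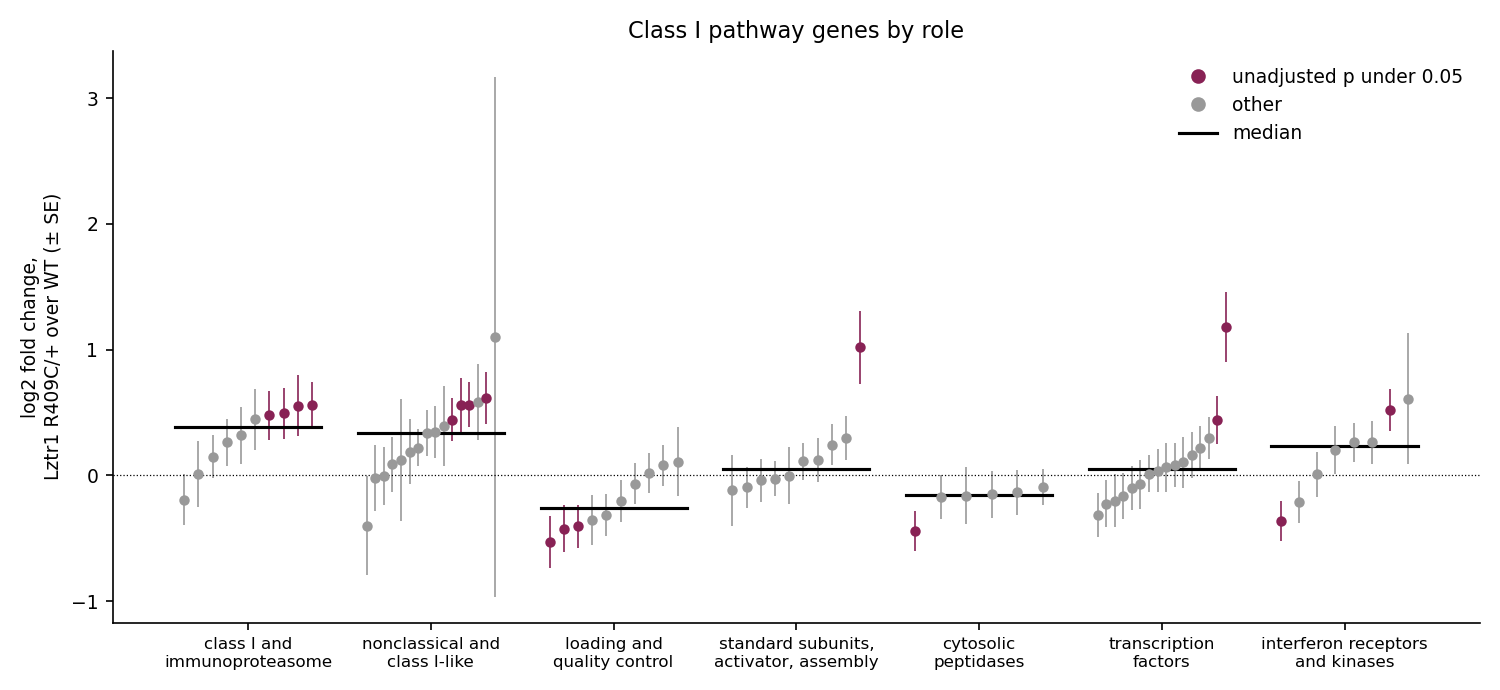
Log2 fold change of Lztr1 R409C/+ over WT mice (± SE from edgeR) for each tested gene, grouped by role, with purple points for an unadjusted p under 0.05 and black lines for the median. The 10 class I and immunoproteasome genes had a median of 0.38, nonclassical heavy chains 0.34 and loading and quality control genes -0.26, and no gene shown passed the adjusted threshold.

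Nonclassical heavy chains present fewer kinds of ligand than H2-K1 and H2-D1. H2-T22, a ligand of gamma delta T cells, was at 12.1, 9.71 and 11.8 CPM in WT and at 16.5, 14.2 and 19.1 CPM in Lztr1 R409C/+ mice, without overlap (log2 fold change 0.56, SE 0.18, unadjusted p = 0.00840, adjusted p = 0.407 by edgeR). H2-Q7, a Qa-2 heavy chain, was at 7.23, 7.30 and 10.7 CPM in WT and at 11.5, 15.1 and 11.9 CPM in Lztr1 R409C/+ mice, also without overlap (log2 fold change 0.61, SE 0.21, adjusted p = 0.454 by edgeR). H2-Q4 and H2-Q6, named after their values were seen, were the other 2 of this role with an unadjusted p under 0.05, at log2 fold changes of 0.44 and 0.56. In all, 4 of the 16 tested genes of this role were higher and 0 lower at this threshold, beside 5.77% and 2.86% of all tested genes. Without overlap and higher were 7 of the 16, beside 8.30% of all tested genes. H2-T22, H2-Q6 and H2-Q7 share windows with H2-D1, as given above.

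Loading and quality control genes had 3 of 10 lower and 0 higher at an unadjusted p under 0.05, beside 2.86% and 5.77% of all tested genes, and 0 passed the adjusted threshold. Hspa5, the chaperone BiP of the endoplasmic reticulum, was at 570.0, 496 and 822 CPM in WT and at 375, 490.1 and 445 CPM in Lztr1 R409C/+ mice (log2 fold change -0.53, SE 0.21, adjusted p = 0.521 by edgeR). Uggt1, the glucosyltransferase that returns misfolded glycoproteins to calnexin, was at 48.1, 50.5 and 61.4 CPM in WT and at 32.2, 43.9 and 44.6 CPM in Lztr1 R409C/+ mice (log2 fold change -0.41, SE 0.17, adjusted p = 0.554 by edgeR). Neither gene overlapped between the genotypes, beside 1245 of all 17212 tested genes that were lower without overlap. Lnpep, an endosomal aminopeptidase named after its values were seen, was the third with an unadjusted p under 0.05, at a log2 fold change of -0.42.
Cytosolic peptidases, which trim or destroy peptides before transport, were below 0 in 6 of 6 genes, while 51.4% of all tested genes were above 0. At an unadjusted p under 0.05, 1 of the 6 was lower and 0 higher, beside 2.86% and 5.77% of all tested genes. Npepps, the puromycin-sensitive aminopeptidase, was at 106, 119 and 121 CPM in WT and at 72.1, 90.4 and 91.8 CPM in Lztr1 R409C/+ mice, without overlap (log2 fold change -0.44, SE 0.16, unadjusted p = 0.0160, adjusted p = 0.470 by edgeR). Blmh, bleomycin hydrolase, had a log2 fold change of -0.17 with overlap (adjusted p = 0.831 by edgeR).

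The 3 standard catalytic subunits and 7 activator and assembly genes of the proteasome had a median log2 fold change of 0.05, between -0.12 and 1.02. Psmg4, an assembly chaperone of the 20S core, was at 2.59, 2.91 and 1.52 CPM in WT and at 5.58, 4.81 and 3.79 CPM in Lztr1 R409C/+ mice, without overlap (log2 fold change 1.02, SE 0.29, unadjusted p = 0.00431, adjusted p = 0.319 by edgeR). Psme2, the beta subunit of the PA28 activator, which interferon gamma induces together with the immunoproteasome, was at 16.3, 13.0 and 19.4 CPM in WT and at 20.0, 20.4 and 19.6 CPM in Lztr1 R409C/+ mice. The highest WT mouse was just below the lowest Lztr1 R409C/+ mouse (log2 fold change 0.30, SE 0.18, adjusted p = 0.674 by edgeR).

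Among 16 transcription factors of class I promoters, 10 were above 0 and 6 below, beside 51.4% of all tested genes above 0. At an unadjusted p under 0.05, 2 were higher and 0 lower, beside 5.77% and 2.86% of all tested genes. Irf8, an interferon regulatory factor of myeloid and B cells, was at 3.12, 2.31 and 3.06 CPM in WT and at 4.51, 5.85 and 8.87 CPM in Lztr1 R409C/+ mice, without overlap (log2 fold change 1.18, SE 0.28, unadjusted p = 0.00109, adjusted p = 0.215 by edgeR). Irf9, the DNA-binding subunit of the type I interferon complex ISGF3, was at 16.2, 12.3 and 10.5 CPM in WT and at 16.0, 19.9 and 16.9 CPM in Lztr1 R409C/+ mice (log2 fold change 0.44, SE 0.19, adjusted p = 0.564 by edgeR). Irf1, an interferon regulatory factor induced by interferon gamma, and Rfx5, which recruits NLRC5, were named after their values were seen. Their log2 fold changes were 0.16 (SE 0.18) and -0.20 (SE 0.21), with overlap between the genotypes for each.
Tyk2, a kinase of the type I interferon receptor, was at 9.65, 9.15 and 10.3 CPM in WT and at 13.6, 15.1 and 13.1 CPM in Lztr1 R409C/+ mice (log2 fold change 0.52, SE 0.16, adjusted p = 0.402 by edgeR). Jak1, which serves both interferon receptors, was lower, at 166, 159.8 and 162 CPM in WT and 109, 143 and 127 CPM in Lztr1 R409C/+ mice (log2 fold change -0.36, SE 0.16, adjusted p = 0.555 by edgeR). Ifng had 0 counts in all 6 mice and Ifnb1 was above 0 only in WT replicate 2, at 0.0466 CPM, so both were at or under the floor of 3 counts.

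Summed levels of the leukocyte marker lists were higher in Lztr1 R409C/+ mice without overlap, and their part in the class I values was not tested (plot of marker lists). Of all tested genes, 51.4% were above 0, 5.77% were higher at an unadjusted p under 0.05 and 0.0407% passed the adjusted threshold. Macrophage and monocyte markers were above 0 in 13 of 14 genes, 12 of them at an unadjusted p under 0.05, and C1qb and C1qc, named after their values were seen, passed the adjusted threshold (adjusted p = 0.0241 for each by edgeR). Both calls were lost when any 1 mouse was left out (adjusted p between 0.0567 and 0.192 by edgeR), without the mice with the lowest and highest mitochondrial share (0.167 for C1qb and 0.110 for C1qc), with a replicate block (0.173 for each) and with library size only (0.447 and 0.379), while the log2 fold changes stayed between 1.01 and 1.24. Both genes stayed called with DESeq2's size factors, the upper quartile, the other filters, without mitochondrially encoded genes and in the DESeq2 test. The macrophage and monocyte list summed to 240 to 281 CPM in WT and 410 to 522 CPM in Lztr1 R409C/+ mice. Pan-leukocyte markers were above 0 in 7 of 7 genes and summed to 57.0 to 72.8 CPM in WT and 107 to 122 CPM in Lztr1 R409C/+ mice. Class II antigen-presenting cell markers were above 0 in 6 of 6 tested genes and summed to 153 to 289 CPM against 296 to 341 CPM. B cell markers were above 0 in 5 of 5 genes and summed to 5.41 to 7.43 CPM against 9.08 to 17.4 CPM. T and NK cell markers were scarce, with 6 of 15 tested and 0 of these 6 at an unadjusted p under 0.05, and summed to 1.17 to 1.99 CPM against 2.73 to 4.03 CPM; Cd8b1 and Ncr1 had 0 counts in every WT mouse.
Endothelial markers summed to 601 to 804 CPM in WT and 544 to 843 CPM in Lztr1 R409C/+ mice, fibroblast markers to 809 to 1128 against 816 to 1098 CPM, smooth muscle and pericyte markers to 651 to 769 against 601 to 744 CPM, and cardiomyocyte markers to 43136 to 47635 against 34158 to 47926 CPM, all with overlap. Rgs5 made up most of the smooth muscle and pericyte sum, at a mean of 573 CPM in WT. At an unadjusted p under 0.05, 2 of 6 smooth muscle and pericyte markers (Tagln and Myh11) were lower, beside 2.86% of all tested genes. Higher at this threshold were 2 of 7 fibroblast (Lum and Tcf21), 1 of 8 endothelial and 0 of 9 cardiomyocyte markers, beside 5.77%. Tagln, Myh11, Lum and Tcf21 were named after their values were seen and did not overlap between the genotypes. Of all 17212 tested genes, 8.30% were higher without overlap and 1245 genes were lower without overlap. Erythroid markers were above 0 in 5 of 5 genes, 3 of them at an unadjusted p under 0.05, with a median log2 fold change of 0.969 beside 0.996 for the macrophage and monocyte list. They summed to 579 to 1479 CPM in WT and 1042 to 2625 CPM in Lztr1 R409C/+ mice, with overlap, and their part in the class I values was not tested. No marker of any list was at 0 in all 6 mice. Of the 3 Lztr1 R409C/+ mice, replicate 1 had the lowest H2-K1, H2-D1, Tap1, Tap2, Tapbp, Psmb9 and Nlrc5 values, but not the lowest B2m, Psmb8 or Psmb10. The same mouse had the highest macrophage (522 CPM), pan-leukocyte (122 CPM), B cell (17.4 CPM) and erythroid (2625 CPM) sums of the 3. Its T and NK cell (2.73 CPM), endothelial (544 CPM), fibroblast (816 CPM) and cardiomyocyte (34158 CPM) sums were the lowest. Its class II (333 CPM) and smooth muscle (691 CPM) sums lay between those of the other mice. Lyz2 made up 249 CPM of its macrophage sum, against 143 and 145 CPM in replicates 2 and 3. The pan-leukocyte sum of replicate 2 was close, at 121 CPM.

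**Figure D5:**
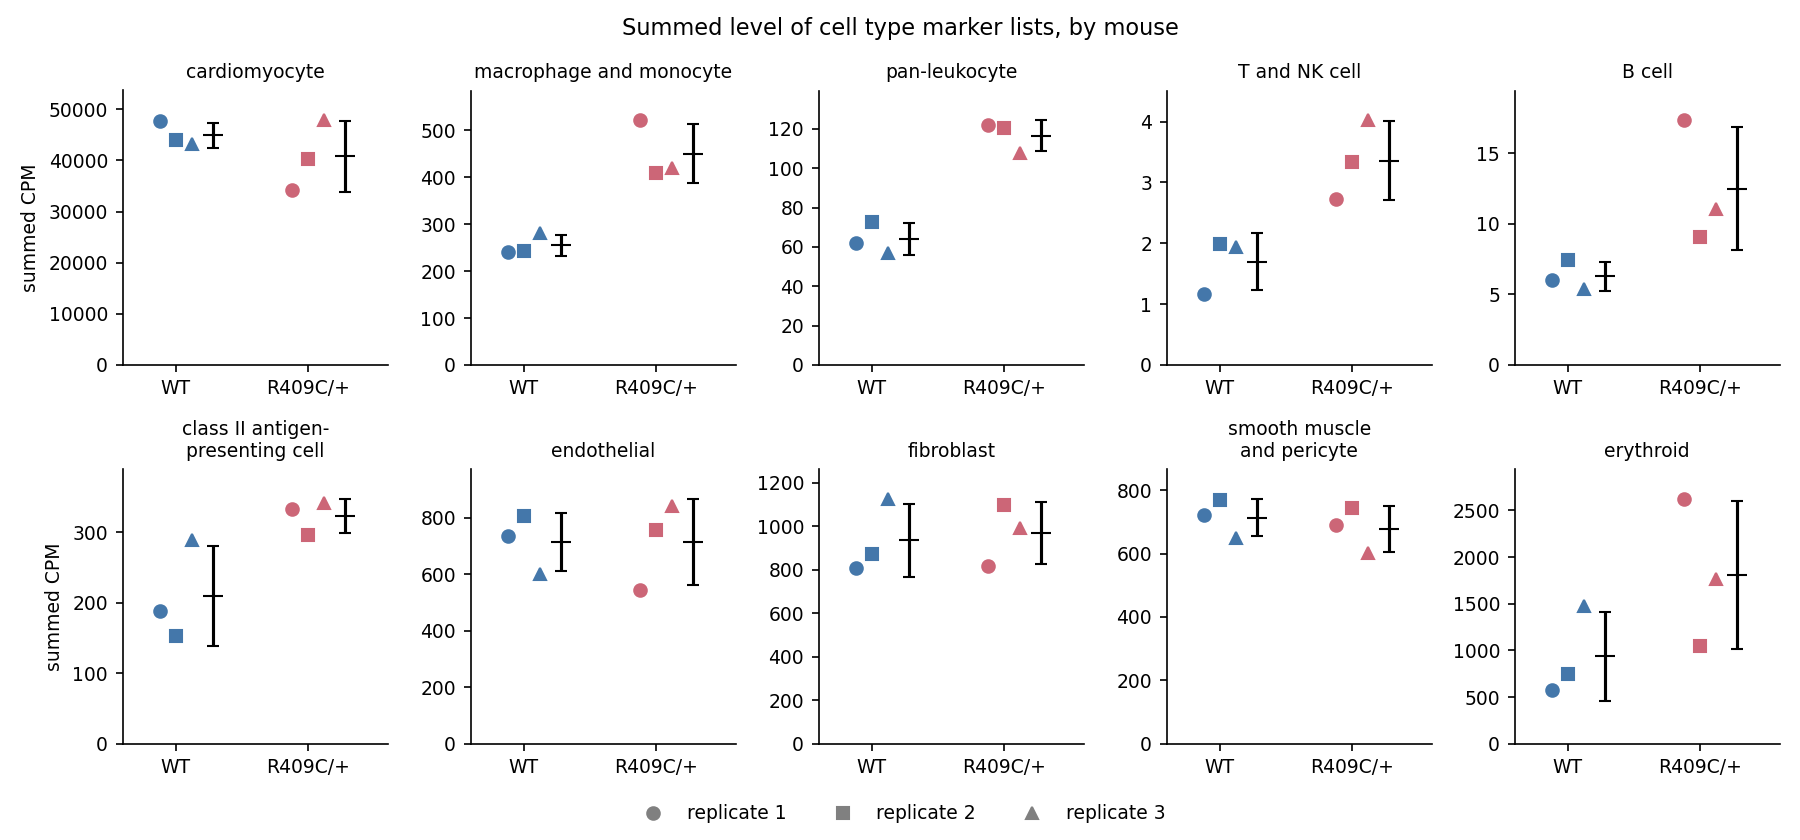
Summed CPM of each cell type marker list in each mouse (linear axes from 0), with blue for WT, red for Lztr1 R409C/+, 1 symbol per replicate number, and black bars for the mean ± SD of 3 mice. Macrophage, pan-leukocyte, T and NK cell, B cell and class II sums did not overlap between the genotypes, at 240 to 281 CPM against 410 to 522 CPM for macrophages, while endothelial, fibroblast, smooth muscle, cardiomyocyte and erythroid sums overlapped.

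The genes whose pattern over the 6 mice was most like the mean of the 10 were sought among 13205 other tested genes with a mean of at least 1 CPM. They were Prc1 (Pearson r = 0.989), Chsy1 (r = 0.988), Lhfp (r = 0.986), Cdc25b (r = 0.979) and the unnamed gene ENSMUSG00000120992 (r = 0.977), over 6 mice that share libraries and scaling and without a test. Prc1, a microtubule bundling protein of cell division, was at 1.80, 1.97 and 2.38 CPM in WT and at 2.06, 3.22 and 2.91 CPM in Lztr1 R409C/+ mice. The mean of the 10 genes, centred on the log2 scale, followed the same course, at -0.29, -0.20 and 0.06 in WT and at -0.10, 0.30 and 0.23 in Lztr1 R409C/+ mice. WT replicate 3 was thus above Lztr1 R409C/+ replicate 1, and replicates 2 and 3 of the Lztr1 R409C/+ mice were above all others.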

How the data were processed

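mRNA-Seq measured the LVs of 3 WT and 3 Lztr1 R409C/+ mice, grouped by the labels. The authors trimmed reads with Trim Galore, aligned them to GRCm39 with HISAT2, excluded rRNA, and used StringTie and edgeR; versions and the annotation release are not given in the sources used here. The deposited values are raw whole-number counts per gene. The authors' table also holds their own fold changes, average expression and p-values, which were not used; only its gene names were. The NEBNext Ultra II RNA kit was used, and strand use is not given.

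The genotypes were compared in edgeR 4.0.16 under R 4.3.3 (filterByExpr, TMM, robust quasi-likelihood test, two-sided, Benjamini-Hochberg over 17212 genes, threshold 0.05) and, as an alternative, DESeq2 1.42.0. The SE is the log2 fold change divided by the square root of F. Total counts were 66130887 to 72641124 per mouse. Positions and lengths are from GENCODE on GRCm39, and promoters are from RefSeq. The gene most like the others was sought on log2(CPM + 0.5). Of the steps, the edgeR test was run on simulated counts. These had the same spread between mice for every gene and no shift in composition between libraries, unlike the data here. The 10 genes, the pathway and marker lists and the tests were chosen with earlier results of these data known. Named are the 10 genes, the 2 pathway genes of each role with the smallest unadjusted p, the standard subunits, Lztr1, the 5 most similar genes, and marker genes that are highest in level or at 0; others are marked where named. Alternatives were other scalings, filters, DESeq2, removal of mitochondrial genes, a replicate block, a length correction and the omission of mice.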

Additional observations from a re-analysis of the deposited data

How the results depend on the processing

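Each result was recomputed under other settings, and 247 of 275 values were labelled the same as in the main setting. A fold change had to keep its direction and, where a p was computed, its side of the threshold. A ratio had to keep its direction only, which was fixed in advance with a replicate block. A count of genes had to stay within a set factor, so that 7 genes above 0 with library size only counted as the same as 9. The median had to stay within the spread between mice. Of 160 log2 fold changes of the 10 genes, 149 kept their direction. The lowest adjusted p of any of the 10 was 0.160 (H2-K1, DESeq2), so the number past the threshold was 0 throughout. Tap2 turned to -0.15 with library size only, to -0.00091 without a filter, to -0.033 with the length correction, and to between -0.21 and 0.27 with each mouse left out. Psmb10 turned to -0.040 with library size only and to -0.00027 with the length correction, and Tapbp to 0.13 without the mice with the lowest and highest mitochondrial share. Library size only shifted the median log2 fold change of all genes from 0.01 to -0.14 and left 34.5% of genes above 0, and 0 of the 10 then had an unadjusted p under 0.05 and 0 did not overlap; with the upper quartile, 3 did not overlap (9.68% of all genes). With each mouse left out, between 0 and 4 had an unadjusted p under 0.05 and between 1 and 6 did not overlap, and 9 did not overlap without the 2 mice named above; fewer mice overlap less by construction. The Psmb10 to Psmb7 difference ran from -0.038 to 0.22 with each mouse left out (-0.035 without WT replicate 1, -0.038 without WT replicate 2, -0.015 without Lztr1 R409C/+ replicate 1). By union exon length, 6 genes kept their place in the order. DESeq2 called 1 pathway gene.

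Over all genes, edgeR called 6 higher and 1 lower, against 15 and 6 with library size only, 19 and 1 without a filter, 143 and 15 with DESeq2, and between 2 and 4 genes with 1 mouse left out. The cause of these differences was not tested. Same-numbered mice did not deviate together (r between -0.057 and 0.022 across genes), and the labels name no pairing. Such values cannot exclude that same-numbered mice were handled together. With a replicate block, 4 of the 10 had an unadjusted p under 0.05 (5.25% of all genes were higher), 0 were called and the median was 0.37. In that fit Tap2 turned to -0.037, and 1 gene, a lower one, was called in all. Within replicate numbers, the Psmb8 to Psmb5 difference was 0.56, which equals the unpaired difference by construction (sign-flip permutation, exact, p = 0.25, the smallest 3 pairs allow).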
